A study of Mus musculus with 9 samples.

Results

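The expression of 10 genes of osteoclast fusion and bone resorption was examined in fracture callus of mice in which the STING pathway was inhibited or activated. The genes were Ctsk, Acp5, Dcstamp, Ocstamp, Oscar, Calcr, Atp6v0d2, Nfatc1, Clcn7 and Tcirg1. They were chosen by symbol for what the genes do, with earlier results of these data known. All 10 were found among the 22054 genes of the deposited table. Male C57BL/6J mice, given as 7 weeks old in the labels, had the left femur broken and fixed with a needle in the marrow cavity. Daily intraperitoneal injections of 200 μl began on the day after surgery and lasted a week. Each dose held 750 nmol of H-151 (an inhibitor of STING) in the H-151 group, 30 mg/kg of SR-717 (an activator of STING) in the SR-717 group and buffer alone in the PBS group. RNA of the callus was sequenced from 3 libraries per group, so that all 9 libraries came from fractured bone and none from uninjured bone. The labels number the libraries as biosamples without saying that each came from a mouse of its own, so p-values measure the spread between these libraries, which may be technical. Both drugs reached the whole animal and were not directed to osteoclasts.

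Osteoclasts are the large, multinucleated cells that remove bone and calcified cartilage. They arise when precursors of the monocyte and macrophage lineage fuse under the cytokines M-CSF and RANKL, with NFATc1 as the transcription factor that switches on most genes of the mature cell. The mature cell seals off an area of bone, pumps protons and chloride into it to dissolve the mineral, and secretes enzymes that digest the collagen. In a fracture callus, they remodel the calcified cartilage and the first woven bone.

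A library held between 16987398 and 23272480 expected counts. The label of callus was checked with its own markers. Col1a1, the main collagen of bone, lay between 5941 and 13015 TPM (a level scaled for gene length and for the library's total), and Col2a1, the collagen of cartilage, between 17.1 and 4317 TPM. Other osteoclast markers were present in every library, with Mmp9, a collagenase, at 1074 to 1959 TPM and Tnfrsf11a, the receptor for RANKL, at 5.30 to 10.2 TPM. SR-717 replicate 1 and PBS replicate 1 stood apart from the others on the first principal component of all genes, which held 46.6% of the variance. Their summed chondrocyte markers were 127 and 786 TPM, against 2219 to 8177 TPM in the other libraries. Differences under SR-717 and the correlations were therefore also computed without SR-717 replicate 1, as an alternative chosen for the gene lists and the correlated pairs after the data were seen.

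The genes lie on different chromosomes. In GRCm38, Ctsk spans chr3:95499256-95509362, Dcstamp chr15:39745930-39760938, Ocstamp chr2:165393760-165400405 and Atp6v0d2 chr4:19876841-19922605. Oscar lies at chr7:3609813-3616157, Calcr at chr6:3685680-3764714, Clcn7 at chr17:25133391-25162104 and Tcirg1 at chr19:3896050-3907133. Acp5 lies at chr9:22126727-22135711, and the span of 6530413G14Rik on the other strand reaches an exon of it. The deposited table held 0 rows for 6530413G14Rik. The libraries were strand-specific, but whether the counting used the strand is not stated, so the count of Acp5 is uncertain to that extent. The span of Nfatc1 also holds an antisense gene, AC123818.1, on the other strand, outside its exons.

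The RefSeq promoter table of GRCm38.p6 held 12 promoters of 6 of the genes, namely Ctsk, Acp5, Oscar, Calcr, Clcn7 and Tcirg1. The sequences of Ctsk and Oscar, whose levels ran together over the libraries, are shown beside that of Clcn7, whose level ran apart from them in SR-717 replicate 1. Each runs 5′ to 3′ on the strand of the gene, from 250 bases before to 30 bases after the annotated start. Capitals mark an E-box (CANGTG) or a PU.1 motif (GAGGAA), found on either strand. CANGTG was searched for MITF and TFE factors, but it is a broad pattern that does not single out their sites. The windows are chr3:95498960-95499239 on the plus strand for Ctsk, chr7:3616128-3616407 on the minus strand for Oscar and chr17:25133141-25133420 on the plus strand for Clcn7.
Ctsk: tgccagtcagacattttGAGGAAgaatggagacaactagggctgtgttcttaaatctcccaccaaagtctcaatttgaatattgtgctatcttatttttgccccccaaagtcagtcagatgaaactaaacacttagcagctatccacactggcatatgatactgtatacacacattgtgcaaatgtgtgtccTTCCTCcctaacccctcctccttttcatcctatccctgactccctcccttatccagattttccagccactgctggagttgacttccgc
Oscar: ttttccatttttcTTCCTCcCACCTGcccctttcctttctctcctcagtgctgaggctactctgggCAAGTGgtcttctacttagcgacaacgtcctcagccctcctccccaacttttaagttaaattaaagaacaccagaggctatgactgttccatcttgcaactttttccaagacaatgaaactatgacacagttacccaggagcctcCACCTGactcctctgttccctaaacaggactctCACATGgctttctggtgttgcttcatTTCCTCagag
Clcn7: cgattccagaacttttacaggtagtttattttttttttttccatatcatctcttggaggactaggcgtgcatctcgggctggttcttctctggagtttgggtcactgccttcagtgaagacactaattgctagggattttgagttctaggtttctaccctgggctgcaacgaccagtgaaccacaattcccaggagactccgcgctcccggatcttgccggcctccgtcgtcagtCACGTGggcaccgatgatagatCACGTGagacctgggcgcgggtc
Over the full windows of 300 bases, the Ctsk promoter held 2 PU.1 motifs and 0 E-boxes, the Oscar promoter 2 PU.1 motifs and 4 E-boxes, and the first Clcn7 promoter 0 PU.1 motifs and 2 E-boxes. Of all 32851 promoters of this length, 28.3% held a PU.1 motif and 44.9% an E-box. The AP-1 motif TGANTCA was in 0 of the 12 promoters and in 7.81% of all promoters. The core motif of NFAT, GGAAA, which can overlap a PU.1 motif, was found 1 time in the Ctsk promoter, 4 times in that of Oscar and 1 time in that of Clcn7, and 61.3% of all promoters held it. These matches describe letters in the windows and are not evidence of binding.

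The resorption enzymes were by far the most abundant of the 10 transcripts. Ctsk encodes cathepsin K, the protease that degrades bone collagen. Its level was 3022, 2793 and 4680 TPM in H-151 replicates 1, 2 and 3, then 3840, 4108 and 5119 TPM in the PBS replicates, and 2192, 3970 and 4637 TPM in the SR-717 replicates. The lowest library belonged to SR-717 and the highest to PBS, and the ranges of all 3 groups overlapped. Acp5 encodes tartrate-resistant acid phosphatase, the enzyme detected by TRAP staining. Its level was 2591, 2417 and 3719 TPM under H-151, 3203, 3632 and 3782 TPM under PBS, and 1836, 2888 and 3697 TPM under SR-717. It followed Ctsk from library to library, and the ratio of Acp5 to Ctsk in TPM stayed between 0.727 and 0.884, a 1.22-fold range.

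**Figure D1:**
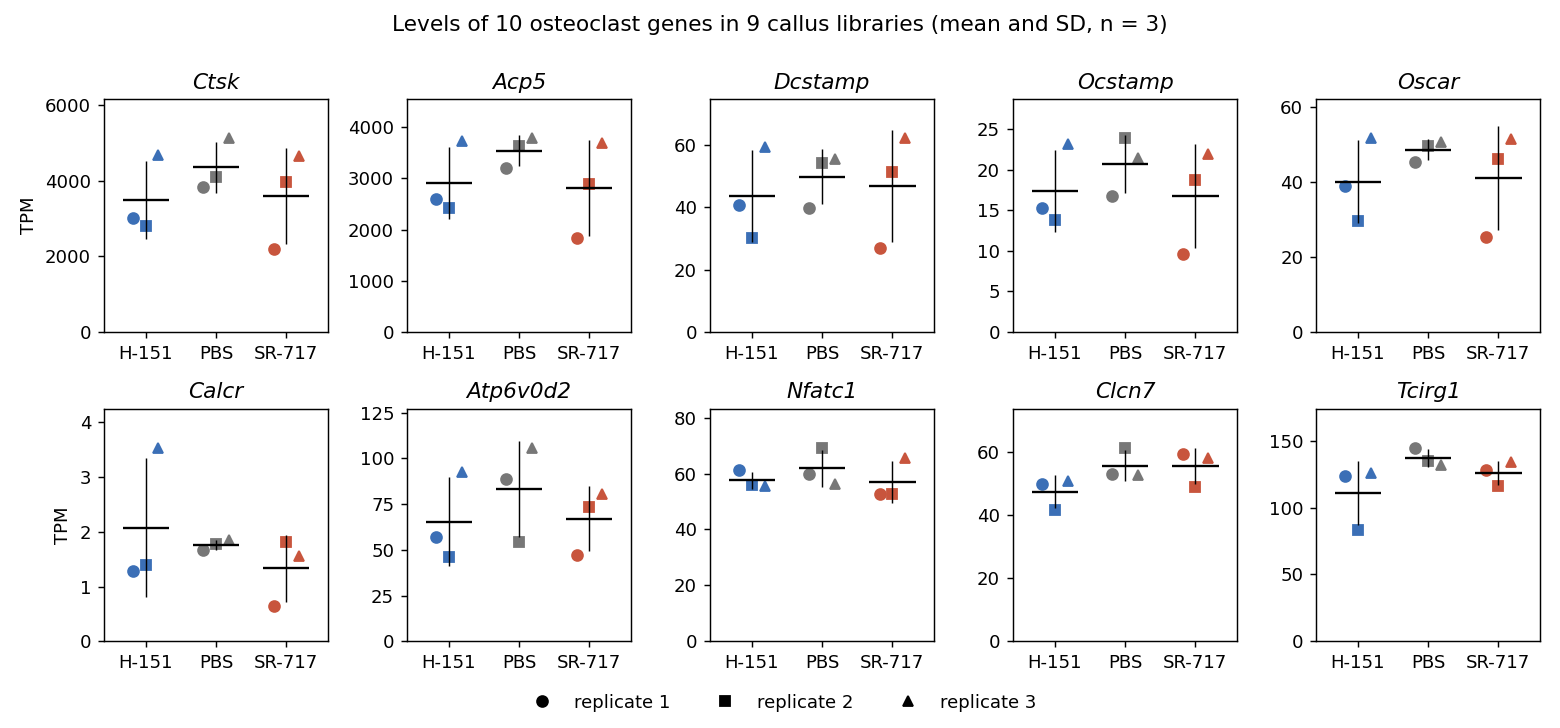
Level of each gene in TPM (vertical axis, from 0) in the 3 groups, with 1 point per library, its shape giving the replicate number, a horizontal bar at the mean and a vertical line of 1 SD on either side (n = 3). Within the H-151 group, replicate 3 lay above the other libraries for Ctsk (4680 TPM) and Calcr (3.54 TPM), and within the SR-717 group replicate 1 lay below the others for both (2192 and 0.636 TPM).

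The fusion genes were expressed at lower levels. Dcstamp encodes DC-STAMP, a membrane protein that precursors need for cell fusion. It measured 40.8, 30.3 and 59.5 TPM under H-151, 39.7, 54.4 and 55.4 TPM under PBS, and 27.1, 51.4 and 62.2 TPM under SR-717. The SR-717 libraries held both the lowest and the highest of the 9 values in TPM, whereas in CPM (counts scaled by library size with TMM, used for 1 gene between libraries) both were H-151 libraries, at 29.7 and 64.6 CPM. Ocstamp, which encodes the related fusion protein OC-STAMP, measured 15.3, 13.8 and 23.2 TPM under H-151, 16.8, 23.9 and 21.5 TPM under PBS, and 9.56, 18.8 and 21.9 TPM under SR-717. The groups overlapped, and SR-717 replicate 1 was the lowest library. The ratio of Dcstamp to Ocstamp ranged from 2.19 to 2.85, so Dcstamp was the higher of this pair in every library. Atp6v0d2 encodes the d2 subunit of the proton pump, which is needed for fusion as well as found in the pump. Its level was 57.3, 46.0 and 92.8 TPM under H-151, 88.8, 54.5 and 106 TPM under PBS, and 47.0, 73.7 and 80.7 TPM under SR-717. The control group also spread widely for this gene, with an SD of 41.1 CPM in PBS, 43.9 CPM in H-151 and 21.0 CPM in SR-717. The ratio of Atp6v0d2 to Atp6v0d1, which encodes the widely expressed d1 subunit, varied 2.58-fold, from 0.288 in H-151 replicate 2 to 0.741 in PBS replicate 3, while Atp6v0d1 itself stayed between 126 and 171 TPM.

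The receptors differed from each other in level. Oscar encodes an immunoglobulin-like receptor that gives a co-stimulatory signal for NFATc1. It measured 39.0, 29.6 and 51.6 TPM under H-151, 45.3, 49.6 and 50.7 TPM under PBS, and 25.4, 46.2 and 51.4 TPM under SR-717. The PBS libraries lay close together, within the range of both drug groups. Calcr encodes the calcitonin receptor, through which calcitonin stops resorption. It was the least abundant of the 10 genes, with 1.29, 1.40 and 3.54 TPM under H-151, 1.67, 1.77 and 1.85 TPM under PBS, and 0.636, 1.81 and 1.55 TPM under SR-717. A single library of each drug group, H-151 replicate 3 and SR-717 replicate 1, gave its highest and lowest value. In CPM these values were 5.59-fold apart.

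The transcription factor Nfatc1 was the steadiest of the 10 genes. It measured 61.2, 55.9 and 55.6 TPM under H-151, 59.9, 69.3 and 56.3 TPM under PBS, and 52.6, 52.5 and 65.6 TPM under SR-717. The highest library was 1.19-fold above the lowest in CPM. Its coefficient of variation in CPM over the 9 libraries was 7.08%, against a median of 21.3% over 14294 genes, and 3.43% of those genes varied less. Ctsk, a target of NFATc1, varied by 27.8%, and the ratio of Ctsk to Nfatc1 in TPM ran from 41.7 in SR-717 replicate 1 to 90.9 in PBS replicate 3. Bulk RNA does not show which cells of the callus either transcript came from.

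Tcirg1 and Clcn7 serve acid secretion. Tcirg1 encodes the a3 subunit that places the proton pump in the ruffled border, and Clcn7 encodes the exchanger that moves chloride alongside the protons. Both also act in lysosomes of other cells. Tcirg1 measured 124, 83.1 and 126 TPM under H-151, 145, 135 and 132 TPM under PBS, and 128, 116 and 134 TPM under SR-717. Clcn7 measured 49.9, 41.4 and 50.7 TPM under H-151, 52.9, 61.3 and 52.6 TPM under PBS, and 59.4, 48.9 and 57.9 TPM under SR-717. For both genes H-151 replicate 2 was the lowest library, and SR-717 replicate 1, the lowest for both enzymes, was the highest for both in CPM. Their coefficients of variation were 14.4% and 13.9%, and their ratio varied 1.37-fold.

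By mean TPM in the PBS group, the order was Ctsk (4355 ± 674, SD, n = 3), Acp5 (3539 ± 300), Tcirg1 (137 ± 7.05), Atp6v0d2 (83.1 ± 26.2), Nfatc1 (61.9 ± 6.73), Clcn7 (55.6 ± 4.93), Dcstamp (49.8 ± 8.81), Oscar (48.5 ± 2.88), Ocstamp (20.7 ± 3.61) and Calcr (1.76 ± 0.0876). From Atp6v0d2 down to Oscar, each neighbour in this order overlapped the next within the PBS libraries, so the ranges do not set these neighbours apart. Library by library, Nfatc1 exceeded Clcn7 in 8 of 9 and Dcstamp exceeded Oscar in 8 of 9. Atp6v0d2 exceeded Nfatc1 in 5 of 9, and Clcn7 exceeded Dcstamp in 5 of 9. Genes further apart in the order could differ, since Atp6v0d2, Nfatc1 and Clcn7 each lay above Oscar in PBS without overlap. The other neighbours did not overlap in PBS, and in each of the 9 libraries Ctsk exceeded Acp5, Acp5 exceeded Tcirg1, Tcirg1 exceeded Atp6v0d2, Oscar exceeded Ocstamp and Ocstamp exceeded Calcr.

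The study set the activator against the inhibitor to examine what the cGAS-STING pathway regulates early in fracture healing. With SR-717 set against H-151, the resorption enzymes, fusion genes and Oscar were at nearly the same mean level, each with a wide interval. With edgeR's quasi-likelihood test, Ctsk differed by 0.06 on the log2 scale (SE 0.37, 95% interval -0.84 to 0.97), Acp5 by -0.02 (-0.83 to 0.78), Dcstamp by 0.14 (-0.75 to 1.04) and Ocstamp by -0.04 (-0.92 to 0.84). The intervals reach from near a halving to near a doubling, so these libraries do not show that the enzymes and fusion genes were alike under both drugs. Clcn7 and Tcirg1 had the smallest p of the 10, at log2 differences of 0.29 (SE 0.17, unadjusted p = 0.144 by edgeR) and 0.27 (SE 0.20, unadjusted p = 0.216 by edgeR), both with overlapping groups. Nfatc1 had the narrowest interval, 0.04 with -0.27 to 0.35. Calcr had the widest, -0.61 with -2.09 to 0.86, and turned to 0.18 without H-151 replicate 3.

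At an adjusted p under 0.05, edgeR called 0 of the 10 genes between SR-717 and H-151, as it did 0% of all 14151 genes tested. DESeq2 called 0 of the 10 as well, and 1 gene of all those tested (0.00707%). At an unadjusted p under 0.05, edgeR called 0 of the 10 against 1.03% of all genes, and DESeq2 called 0 against 1.99%. In 0 of the 10 genes did the groups not overlap, against 5.18% of all genes. The adjusted p of the genes lay between 0.996 and 0.999 by edgeR. The median log2 difference was 0.06 over the 10 genes and 0.02 over all genes, with 7 genes above and 3 below 0.

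Compared to the PBS group, which serves as the control for both drugs, the genes were mostly at slightly lower mean levels in either drug group, and no difference passed the test. The comparisons share the PBS libraries and are not independent of each other. Under SR-717, the difference was -0.20 for Ctsk (SE 0.32), -0.25 for Acp5 (SE 0.27, the smallest p of the 10, unadjusted p = 0.386 by edgeR), 0.02 for Dcstamp (SE 0.29) and -0.04 for Nfatc1 (SE 0.15). Under H-151, it was -0.27 for Ctsk (SE 0.32), -0.24 for Acp5 (SE 0.28), -0.13 for Dcstamp (SE 0.32), -0.09 for Nfatc1 (SE 0.13) and -0.26 for Tcirg1 (SE 0.19, the smallest p of the 10, unadjusted p = 0.225 by edgeR). Each gene's interval included 0 in both comparisons.

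Against PBS, edgeR called 0 of the 10 genes under either drug at an adjusted p under 0.05, against 0% of 14070 genes for SR-717 and 0% of 14085 genes for H-151, and DESeq2 likewise called 0 of the 10 and 0% of all genes in both. At an unadjusted p under 0.05 edgeR and DESeq2 both called 0 of the 10, where edgeR called 0.689% of all genes under SR-717 and 0.646% under H-151, and DESeq2 1.27% and 0.887%. The groups were apart for 0 of the 10 genes in each, against 3.75% and 3.87% of all genes. Every adjusted p was 1.000 by edgeR. The median difference over the 10 genes was -0.18 under SR-717 (all genes 0.01) with 7 of 10 below 0, and -0.22 under H-151 (all genes -0.02) with 9 of 10 below 0, Calcr being the exception.

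These values come from fits without pairing. Deviations of libraries of the same replicate number correlated positively in both comparisons with PBS, so the replicate number was also fitted as a block. Correlations between libraries of different numbers were not computed, so a pairing by number was not shown. Under H-151, 2 of the 10 genes, Ctsk and Atp6v0d2, were lower than PBS in CPM in all 3 numbered pairs, against 11.5% of all genes. With the block, Atp6v0d2 differed by -0.34 (SE 0.16, unadjusted p = 0.0857, adjusted p = 1.00 by edgeR) and Ctsk by -0.32 (SE 0.18). Under SR-717, 2 of the 10 genes, Acp5 and Ocstamp, were lower in all 3 pairs, against 12.4% of all genes, with block differences of -0.29 (SE 0.21) and -0.28 (SE 0.18). The block called 0 of the 10 genes at an adjusted or unadjusted p under 0.05 in either comparison by edgeR.

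**Figure D2:**
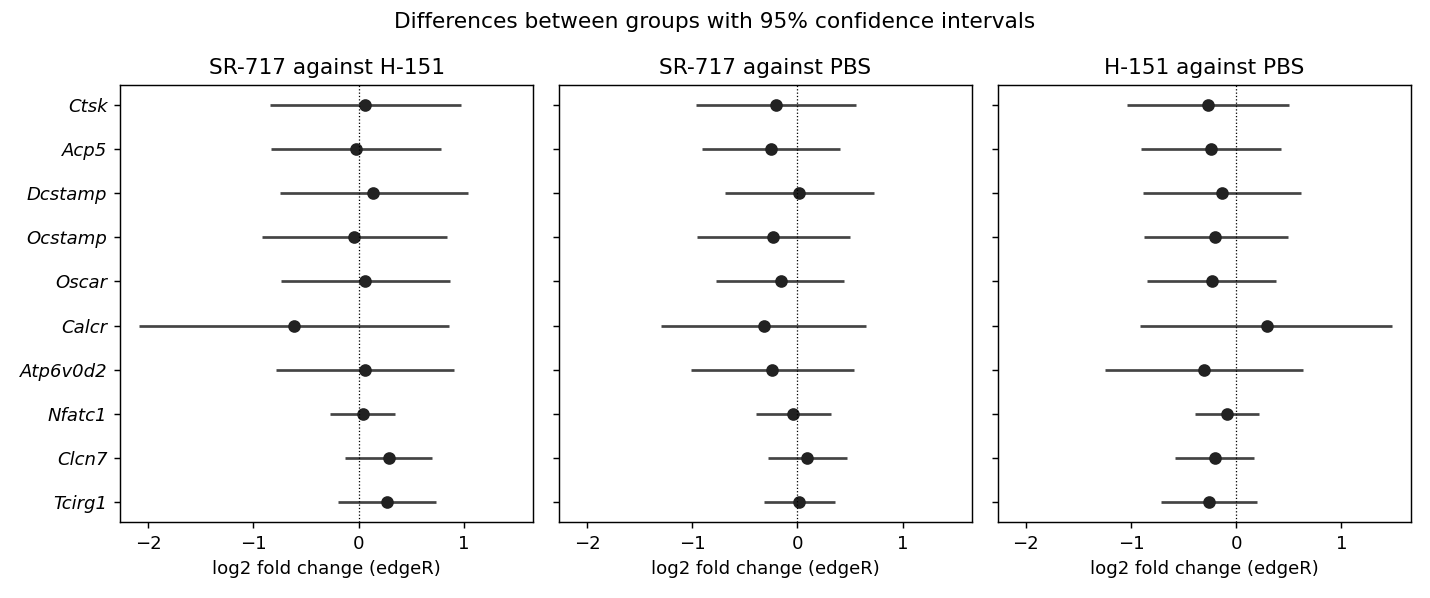
Log2 fold change by edgeR (horizontal axis) of each gene in the 3 comparisons, as a point with its 95% confidence interval as a line. All 30 intervals cross the dotted line at 0, and that of Nfatc1 between SR-717 and H-151 (-0.27 to 0.35) is narrower than that of Calcr (-2.09 to 0.86).

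The unpaired H-151 comparisons depended on single libraries. H-151 replicate 3 was the highest of all 9 libraries in CPM for 5 of the 10 genes, while H-151 replicate 2 was the lowest for 5 genes. Each library was left out in turn. Without H-151 replicate 3, the mean of the remaining H-151 libraries was lower than that of PBS in all 10 genes. Leaving out a library so high for these genes lowers that mean by construction. In this fit, 4 of the 10 reached an unadjusted p under 0.05 by edgeR, against 0.941% of all genes. These were Oscar (log2 difference -0.57, SE 0.18), Ocstamp (-0.57, SE 0.20), Acp5 (-0.56, SE 0.21) and Ctsk (-0.65, SE 0.25). Their adjusted p stayed at 0.999 by edgeR, so none was called. The levels of these 4 genes ran together over the libraries, so they are not 4 separate observations. With H-151 replicate 3 left out, Clcn7 was the gene of the 10 at an unadjusted p under 0.05 between SR-717 and H-151 (log2 difference 0.43, SE 0.17, unadjusted p = 0.0494 by edgeR), against 1.38% of all genes. The median over the 10 genes moved to 0.41 in that comparison and to -0.56 between H-151 and PBS. Leaving out H-151 replicate 2 moved it the other way, to -0.12 between SR-717 and H-151 and to -0.07 between H-151 and PBS. By replicate number H-151 replicate 3 pairs with PBS replicate 3, the PBS library with the highest mean over the 10 genes. Nothing in the labels sets it apart, and the values with all libraries stand as the result.

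Leaving out SR-717 replicate 1 took away the lower mean under SR-717. This library was the lowest of the 9 in CPM for Ctsk, Acp5, Ocstamp, Oscar and Calcr, and the highest for Clcn7 and Tcirg1. Leaving out the lowest library of a gene raises the mean of its group by construction. Without SR-717 replicate 1, the difference from PBS was 0.03 for Ctsk (SE 0.25), -0.05 for Acp5 (SE 0.22), 0.26 for Dcstamp (SE 0.21) and 0.07 for Oscar (SE 0.15). The median over the 10 genes was then -6.6e-06.

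Across the libraries, most of the genes ran together, and libraries of the same group differed. The mean over the 10 genes of the centred log2 CPM was -0.32, -0.43 and 0.46 in the H-151 replicates, 0.02, 0.06 and 0.30 in the PBS replicates, and -0.40, 0.10 and 0.21 in the SR-717 replicates. Both drug groups thus held libraries below and above the average. The PBS libraries lay between the extremes of the H-151 group, while PBS replicate 3 lay above every SR-717 library.

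**Figure D3:**
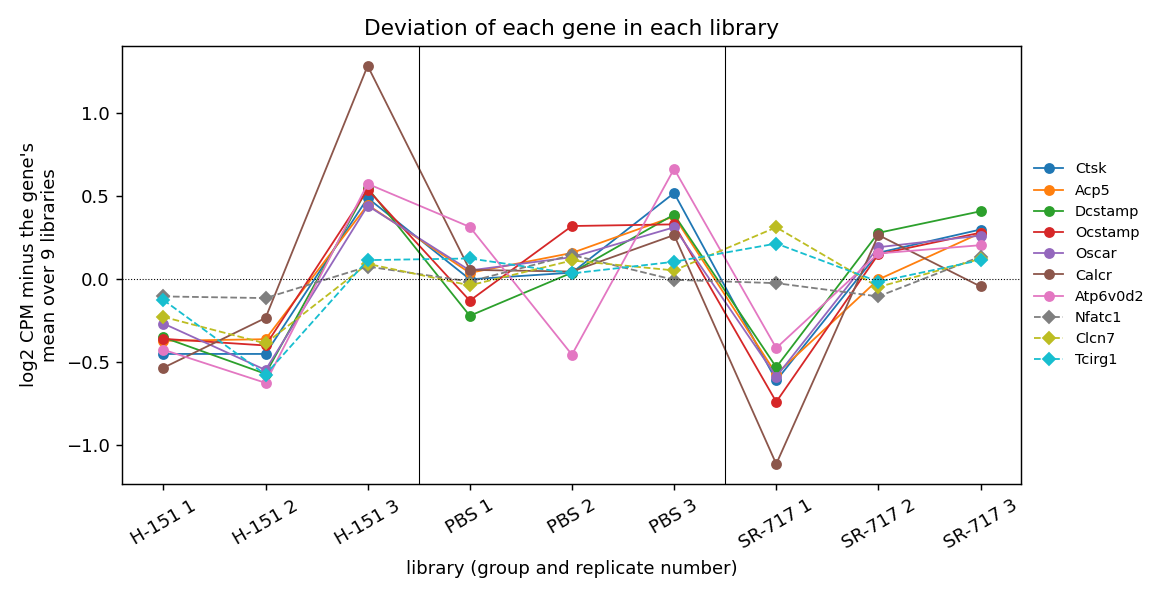
Log2 CPM of each gene minus its own mean over the 9 libraries (vertical axis) in each library (horizontal axis), with lines that only join the points of 1 gene. Nfatc1, Clcn7 and Tcirg1 are dashed, and in SR-717 replicate 1 Clcn7 and Tcirg1 lie above 0 while Ctsk, Acp5, Dcstamp, Ocstamp, Oscar, Calcr and Atp6v0d2 lie below it.

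Of the 45 pairs among the 10 genes, 21 had a Pearson correlation of log2 CPM over the 9 libraries at a Benjamini-Hochberg adjusted p under 0.05 (two-sided exact permutation test), and 13 by Spearman's rho. Ctsk and Oscar gave r = 0.97 (exact permutation p = 1.7e-05, adjusted 3.7e-04) and rho = 0.97 (exact permutation p = 1.7e-04, adjusted 0.00372), with r = 0.95 without the 2 libraries farthest from the median of Ctsk. Ctsk and Acp5 gave r = 0.98 (exact permutation p = 8.5e-05, adjusted 5.8e-04) and rho = 0.93 (exact permutation p = 7.5e-04, adjusted 0.00562), and r = 0.96 without the 2 farthest. Ctsk and Nfatc1 gave r = 0.52 (exact permutation p = 0.151, adjusted 0.226) and rho = 0.58 (exact permutation p = 0.108, adjusted 0.174), and r = 0.45 without the 2 farthest. Without SR-717 replicate 1, 32 of the 45 pairs passed by Pearson's r and 11 by Spearman's rho, and Ctsk and Oscar gave r = 0.95. The share of all gene pairs that would pass was not computed, so these counts do not show that correlation is particular to the 10 genes. All pairs share the same libraries and their scaling, and the labels give no batch within which to repeat them.

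A division into 7 and 3 genes was made after these values were seen and is given without a test. Among Ctsk, Acp5, Dcstamp, Ocstamp, Oscar, Calcr and Atp6v0d2, r ran from 0.68 to 0.98. Between these 7 and Nfatc1, Clcn7 or Tcirg1 it ran from -0.02 to 0.64, while Clcn7 and Tcirg1 gave r = 0.89 with each other. The separation of the acid secretion pair rested on SR-717 replicate 1. Without that library, the r of Clcn7 with the mean of the other 9 genes went from 0.31 to 0.88, that of Tcirg1 from 0.45 to 0.79, and that of Nfatc1 from 0.56 to 0.60.

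**Figure D4:**
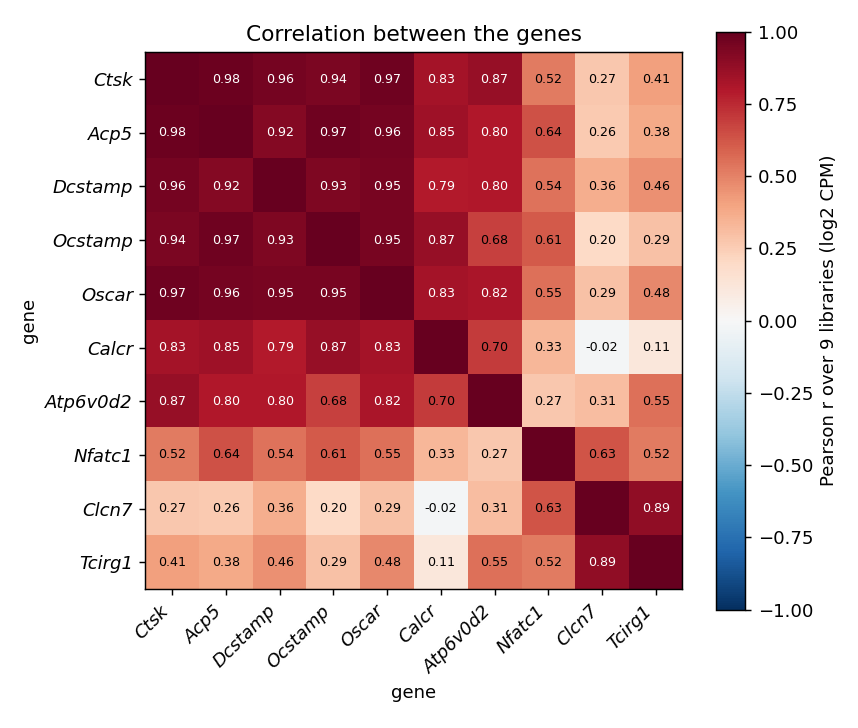
Pearson r of log2 CPM over the 9 libraries for each pair of the 10 genes (both axes), on a color scale from -1 to 1 with the value written in each cell. The block from Ctsk to Atp6v0d2 lies at 0.68 to 0.98, and Clcn7 with Tcirg1 at 0.89.

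Cell type marker lists also varied between the libraries, and their correlation with the 10 genes was not computed. The summed level of 9 neutrophil markers was 33895 TPM in SR-717 replicate 1, 12045 and 10796 TPM in H-151 replicates 1 and 2, and 1463 to 9556 TPM in the other 6 libraries. The 3 libraries highest in neutrophil markers were thus the 3 with the lowest mean over the osteoclast genes, and PBS replicate 3 and H-151 replicate 3, the lowest in neutrophil markers with 1463 and 2974 TPM, had the 2 highest means. Osteoblast markers (10 genes) ran from 10413 TPM in SR-717 replicate 1 to 25731 TPM in PBS replicate 3. Macrophage markers (10 genes) were at 11117 TPM in SR-717 replicate 1 and at 4183 to 7403 TPM elsewhere. Erythroid markers (6 genes) ran from 1290 to 40990 TPM and skeletal muscle markers (8 genes) from 6306 to 34446 TPM. The other lists summed to 4676 to 8994 TPM for fibroblast and periosteal markers, 410 to 563 TPM for endothelial, 232 to 435 TPM for adipocyte, 10.7 to 90.2 TPM for B cell, 24.0 to 40.9 TPM for dendritic cell and 2.42 to 21.2 TPM for keratinocyte markers. No marker of these lists was under 0.1 CPM in all 9 libraries, and the part of these cells in the result was not tested. In bulk tissue, fewer osteoclasts and less of these transcripts per osteoclast cannot be told apart.

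Between the groups, with all libraries, 9 of 9 neutrophil markers were higher under SR-717 than under PBS (median log2 difference 1.37, all genes 0.01) and 9 of 9 under H-151 (median 0.76, all genes -0.02), with 0 of the 9 at an adjusted p under 0.05 by edgeR and 0 at an unadjusted p under 0.05 in either. Without SR-717 replicate 1, the neutrophil median under SR-717 was 0.53, with 9 of 9 still higher than PBS. PBS replicate 3 was low for this list, with a mean log2 CPM of 5.00 against 7.40 and 7.39 in PBS replicates 1 and 2. The mean was 7.76 and 7.03 in SR-717 replicates 2 and 3, and 8.05, 8.03 and 6.20 in the H-151 replicates. The list was not examined without PBS replicate 3. Between SR-717 and H-151, 9 of 9 were higher under SR-717 (median 0.67), but 2 of 9 without that library (median -0.27). Of 10 macrophage markers, 10 were higher under SR-717 than under H-151 (median 0.54, with 0 at an unadjusted p under 0.05, against 1.03% of all genes) and 10 higher than under PBS (median 0.43, with 1 at an unadjusted p under 0.05, against 0.689% of all genes). At an adjusted p under 0.05, edgeR called 0 of them in either comparison. Without that library, the macrophage medians were 0.18 and 0.03. All 9 chondrocyte markers were lower under SR-717 than under PBS (median -1.03, and -0.53 without that library), with 0 past either threshold with all libraries. Other lists also moved in a single direction. Under H-151 against PBS, 6 of 6 erythroid (median 1.19), 6 of 6 B cell (1.02) and 8 of 8 skeletal muscle markers (0.39) were higher. The 4 adipocyte markers tested were higher too (1.31), and 5 of 5 endothelial markers were lower (-0.13). At an adjusted p under 0.05, edgeR called 0 of these.

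The genes whose levels followed the mean of the 10 most closely over the 9 libraries were Cpz (r = 0.975), Nrp2 (0.965), Slc9b2 (0.958), Nmb (0.951), B3gnt7 (0.948), Slc37a2 (0.939), Ube2ql1 (0.939), Hexa (0.935), Erp29 (0.933) and Ckb (0.932). Slc9b2 encodes a sodium and proton exchanger abundant in osteoclasts, Hexa a subunit of lysosomal hexosaminidase and Ckb the brain-type creatine kinase. The median r of the 13509 genes compared was 0.06, and 27 of them (0.200%) reached 0.9. These r values are descriptions over 9 libraries, and without SR-717 replicate 1 the 10 highest shared 5 genes with this list, led by Slc9b2 (0.974) and Atp6v1b2 (0.972), a subunit of the proton pump. Taken singly, Ctsk was closest to Slc9b2 (r = 0.983), Acp5 to Ctsk (0.978), Dcstamp to Nrp2 (0.971), Ocstamp to Matk (0.973) and Oscar to B3gnt7 (0.977). Calcr was closest to Fign (0.971), Atp6v0d2 to Mrps25 (0.956) and Nfatc1 to Mettl16 (0.953). Clcn7 was closest to Naglu (0.919) and Tcirg1 to Dpp7 (0.969), both genes of lysosomal enzymes. Each of these is the highest of many r values over 9 libraries, so no shared theme can be read from them.

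The other genes of the pathway were taken from 6 lists, and edgeR called 0 of them at an adjusted p under 0.05 in any comparison, with 1 at an unadjusted p under 0.05 (Creb1 under H-151 against PBS). That is 1 of 76 genes tested in that comparison (1.32%, against 0.646% of all genes), with 0 of 76 in each of the others, against 1.03% of all genes for SR-717 with H-151 and 0.689% for SR-717 with PBS. DESeq2 gave the same counts of 0, 0 and 1. Of 23 tested genes of the proton pump and acid secretion, 17 were higher under SR-717 than under H-151 (median 0.12, all genes 0.02) and 19 were lower under H-151 than under PBS (median -0.15, all genes -0.02). Atp6v0c, which encodes the ring subunit of the pump, had the smallest p between the drugs, at 737 against 568 CPM (log2 difference 0.37, SE 0.20, and 0.20 without SR-717 replicate 1). Slc4a2, the exchanger that brings chloride into the osteoclast, was at 136 CPM under H-151 and 162 CPM under PBS (log2 difference -0.26, SE 0.14). Its groups did not overlap, as in 3.87% of all genes, and it was named for the smallest p of its list. Atp6v1b1, a pump subunit best known from kidney, was at 0 in all 9 libraries, and Car2, the carbonic anhydrase that supplies protons in osteoclasts and red cells alike, ran from 22.3 CPM in PBS replicate 1 to 124 CPM in H-151 replicate 2.

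Of 10 fusion partners, 8 were higher under SR-717 than under H-151 (median 0.28) and 7 higher than under PBS (median 0.25). Without SR-717 replicate 1, the library highest in macrophage and neutrophil markers, these counts were 5 (median -0.03) and 3 (median -0.05). Tyrobp, which encodes the adaptor DAP12, was at 357 CPM under SR-717 and 244 CPM under PBS (log2 difference 0.55, SE 0.32, and 0.14 without that library). Sh3pxd2a, which encodes the podosome scaffold TKS5, went the other way, at 345 CPM under SR-717 and 452 CPM under H-151 without overlap (log2 difference -0.40, SE 0.22, and -0.20 without that library). Of 11 genes of attachment and the sealing zone, 10 were higher under SR-717 than under H-151 (median 0.25), and 6 were higher without SR-717 replicate 1 (median 0.04). Pxn (paxillin) was at 206 and 149 CPM with no overlap (log2 difference 0.46, SE 0.25, and 0.13 without that library). Src, the kinase needed for the ruffled border, was at 67.5 CPM under H-151 and 78.9 CPM under PBS without overlap (log2 difference -0.22, SE 0.12). None of these passed the test. Groups did not overlap in 5.18% of all genes between SR-717 and H-151, and in 3.87% between H-151 and PBS. Each gene was named for the smallest p of its list, so a lack of overlap is not a separate result.

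Of 10 other osteoclast genes, 10 were lower under SR-717 than under PBS (median -0.18) and 9 lower under H-151 (median -0.25), with 0 at an unadjusted p under 0.05 by edgeR in either. Mmp14, a membrane metalloproteinase named for the smallest p of the list, was at 766 CPM under SR-717 and 889 CPM under PBS. Its groups did not overlap, as in 3.75% of all genes. Without SR-717 replicate 1, 5 of these 10 genes were lower than PBS (median -3.5e-03). Of 15 upstream activators of NFATc1, 13 were higher under SR-717 than under H-151 (median 0.37), among them Tfe3 at 70.1 against 53.6 CPM (log2 difference 0.38, and 0.15 without SR-717 replicate 1), and 6 were higher without that library (median -0.02). The gene of the 6 lists that reached an unadjusted p under 0.05 was Creb1, which encodes a transcription factor activated downstream of calcium signaling, at 23.6 CPM under H-151 and 42.6 CPM under PBS (log2 difference -0.85, SE 0.34, adjusted p = 1.000 by edgeR). Of 7 repressors of osteoclast formation, 4 were higher under SR-717 than under PBS (median 0.34), with Irf8 at 51.0 against 27.9 CPM (log2 difference 0.87, SE 0.46). Without SR-717 replicate 1, the median was -0.19 and the difference of Irf8 0.36. The summed level of the activators was 922 TPM in SR-717 replicate 1 and 444 to 673 TPM in the other libraries, the same library in which the macrophage and neutrophil markers were highest.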

How the data were processed

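Callus mRNA was analyzed in 9 libraries, grouped by the treatment in the labels. The table deposited by the authors holds unnormalized expected counts and, beside them, TPM values scaled for gene length. Of the expected counts, 8.91% were not whole. The submitters' processing notes name mm10, and the aligner and counter are not given in the sources used here. The labels describe RNA extraction from cell lines, whereas the methods of the study describe callus.

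After rounding, counts were tested in edgeR 4.0.16 under R 4.3.3 (filterByExpr at its minimum count of 10 and minimum total of 15, TMM, quasi-likelihood F test, Benjamini-Hochberg adjustment over all genes tested) on the 6 libraries of each pair of groups, without covariates. Groups overlapped where the ranges of their CPM did. Log2 CPM used a prior count of 2. Alternatives were DESeq2 1.42.0, limma 3.58.1 on log2(TPM + 1), DESeq2 size factors, no filter, all 9 libraries in 1 fit, the replicate block and leaving out libraries. The edgeR script was tested on simulated data. Correlations used exact permutation of the pairings.

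The 10 genes, the 18 gene lists and the motifs were chosen with earlier results of these data known. All 10 genes are named. From each of 6 osteoclast lists, the genes at an unadjusted p under 0.05, or otherwise the gene with the smallest p, could be named per comparison, and Atp6v0d1, Atp6v1b1 and Car2 were added after their values were seen. Likeness was ranked over genes with a mean CPM of at least 1.

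The labels do not say what replicate numbers stand for. Deviations from the group means correlated between libraries of the same number by 0.34, 0.06 and 0.08 for SR-717 and H-151, by 0.65, 0.34 and 0.14 for SR-717 and PBS, and by 0.30, 0.49 and 0.50 for H-151 and PBS. The numbers were therefore tried as a pairing of the libraries in the 2 comparisons with PBS, where the unpaired fit stayed the main one. Between SR-717 and PBS, the highest value was that of replicate 1, whose libraries stood apart on the first principal component. Correlations between libraries of different numbers were not computed, and what the numbers mark was not tested. Gene positions come from GENCODE for GRCm38 and promoters from RefSeq.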

Additional observations from a re-analysis of the deposited data

How the results depend on the processing

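Over the alternatives run, 0 of the 10 genes reached an adjusted p under 0.05 in any comparison, the smallest being 0.710 for Clcn7 between SR-717 and H-151 without SR-717 replicate 3 by edgeR. Leaving out 1 library in turn gave 0 to 1 gene at an unadjusted p under 0.05 between SR-717 and H-151, 0 to 0 between SR-717 and PBS and 0 to 4 between H-151 and PBS, the 1 and the 4 both without H-151 replicate 3. The median log2 difference over the 10 genes then ran from -0.12 (without H-151 replicate 2) to 0.41 (without H-151 replicate 3) between SR-717 and H-151, from -0.33 (without SR-717 replicate 3) to -6.6e-06 (without SR-717 replicate 1) between SR-717 and PBS, and from -0.56 (without H-151 replicate 3) to -0.07 (without H-151 replicate 2) between H-151 and PBS. Of 370 differences of single genes under the alternatives, 325 had the sign given in the report, and 11 of the 30 differences kept their sign under all alternatives run.

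With the replicate block, 0 of the 10 genes were called in any comparison. Over all genes, the replicate block moved the number at an unadjusted p under 0.05 from 97 to 534 between SR-717 and PBS and from 91 to 431 between H-151 and PBS, and to 173 from 146 between SR-717 and H-151. DESeq2 gave 281, 178 and 125 for SR-717 against H-151, SR-717 against PBS and H-151 against PBS, and edgeR without a filter on low counts gave 256 and 211 in the first and second of these. Of the 10 genes most like the mean of the 10 genes, 5 were among the 10 without SR-717 replicate 1 and 3 among the 10 by Spearman's rho, and the cause was not tested.

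Leaving out 1 library moved these counts over all genes to between 76 (without H-151 replicate 2) and 757 (without SR-717 replicate 3) for SR-717 against H-151, between 102 (without SR-717 replicate 2) and 348 (without SR-717 replicate 3) for SR-717 against PBS, and between 45 (without H-151 replicate 2) and 884 (without PBS replicate 2) for H-151 against PBS. With 3 libraries per group, standard errors were 0.13 to 0.61 on the log2 scale over the 10 genes.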
